A study of Rattus norvegicus with 6 samples.

Results

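NRF2 is the transcription factor that switches on genes of antioxidant defence, and the genes described here are the factor, its inhibitor and the glutathione and redox genes it is known to control. The set was chosen by symbol, with earlier results of these data known, and holds 9 genes (Nfe2l2, Keap1, Hmox1, Nqo1, Gclc, Gclm, Gsr, Txnrd1 and Srxn1), and each was looked up in the deposited table of 32623 rat genes. Of these, 8 had a row, and Srxn1 was not matched and is not analysed here. The cells were C6, a rat glioma cell line, grown in serum-containing medium and treated for 24 h with forskolin (FSK), which activates adenylyl cyclase, or with the solvent DMSO. Each group had 3 libraries made from total RNA, and the labels give no genetic change, no batch and no statement that the 3 libraries of a group came from separate cultures. The p-values therefore measure the spread among these libraries alone, which may be technical.

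In resting cells KEAP1, an adaptor of a CUL3 ubiquitin ligase, holds NRF2 and has it degraded. When reactive compounds modify cysteines of KEAP1, NRF2 escapes, enters the nucleus, pairs with a small MAF protein and binds antioxidant response elements (ARE) beside its target genes. Astrocytes are known for a strong NRF2 response and for supplying neurons with the building blocks of glutathione. NRF2 itself is controlled largely as a protein, which RNA levels do not show.

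Total counts were 72.1 to 80.0 M per library, and 14166 genes passed the filter on low counts. The glial markers S100b, Gfap, Vim, Nes and Sox2 were all detected, with a summed level of 1380 to 1400 FPKM (fragments per kilobase of transcript, scaled to library size) in DMSO and 1840 to 1880 in FSK. Most of that sum was Vim, with a mean of 1150 FPKM in DMSO and 1380 in FSK, and the others did not move together: mean FPKM was higher in FSK for S100b (103 and 350) and Gfap (3.44 and 36.1) and lower for Nes (61.7 and 31.5) and Sox2 (69.5 and 57.3). The 4 neuronal markers summed to 5.80 to 6.85 FPKM in DMSO and 12.6 to 15.4 in FSK, nearly all of it Tubb3 (means of 6.12 and 13.8), while Snap25 and Syt1 were at 0.208 FPKM or less and Rbfox3 had 0 counts in all 6 libraries. The 4 endothelial markers summed to 0.331 to 0.372 FPKM in DMSO and 0.110 to 0.210 in FSK, nearly all of it Tek (means of 0.347 and 0.145), with Cdh5 and Cldn5 at 0 counts and Kdr at 4 or fewer. The 5 microglial markers summed to 0.365 to 0.761 FPKM in DMSO and 3.65 to 4.09 in FSK, nearly all of it Cd68, while Ptprc had at most 12 counts and Itgam at most 4. The part of these markers in the results was not tested. In bulk RNA, fewer cells of a type and less RNA per cell cannot be told apart.

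Forskolin moved these genes little and not in one direction. Txnrd1, encoding cytosolic thioredoxin reductase, rose 1.27-fold and Keap1 rose 1.14-fold. Gclm, encoding the modifier subunit of the rate-limiting enzyme of glutathione synthesis, fell to 0.780 of its DMSO level. Hmox1 (heme oxygenase) fell to 0.896 and Gsr (glutathione reductase) to 0.895 of theirs. Nfe2l2, Nqo1 and Gclc did not pass the test, which was edgeR's quasi-likelihood test with Benjamini-Hochberg adjustment over all 14166 genes and a threshold of 0.05. Thus 2 of the 8 members rose and 3 fell, where 19.6% of all tested genes rose, 19.8% fell and 39.4% were called in either direction. The FSK and DMSO libraries did not overlap for these 5 members, as for 53% of all tested genes. All 8 members were well expressed, and of the 4159 tested genes with a mean level at or above the lowest member's 20.5 FPKM, 52.5% were called. None of the 8 reached 1.5-fold. Of all 14166 tested genes, 2432 were called and past 1.5-fold, as were 478 of those 4159. The median log2 fold change of the 8 was -0.08, against -0.01 over all tested genes and 0.08 over those 4159. The median size of change of the 8 was 0.16, against 0.31 over all tested genes, many of them less expressed than any member. It was not computed for those 4159, so the sizes are not compared at a like level.

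**Figure D1:**
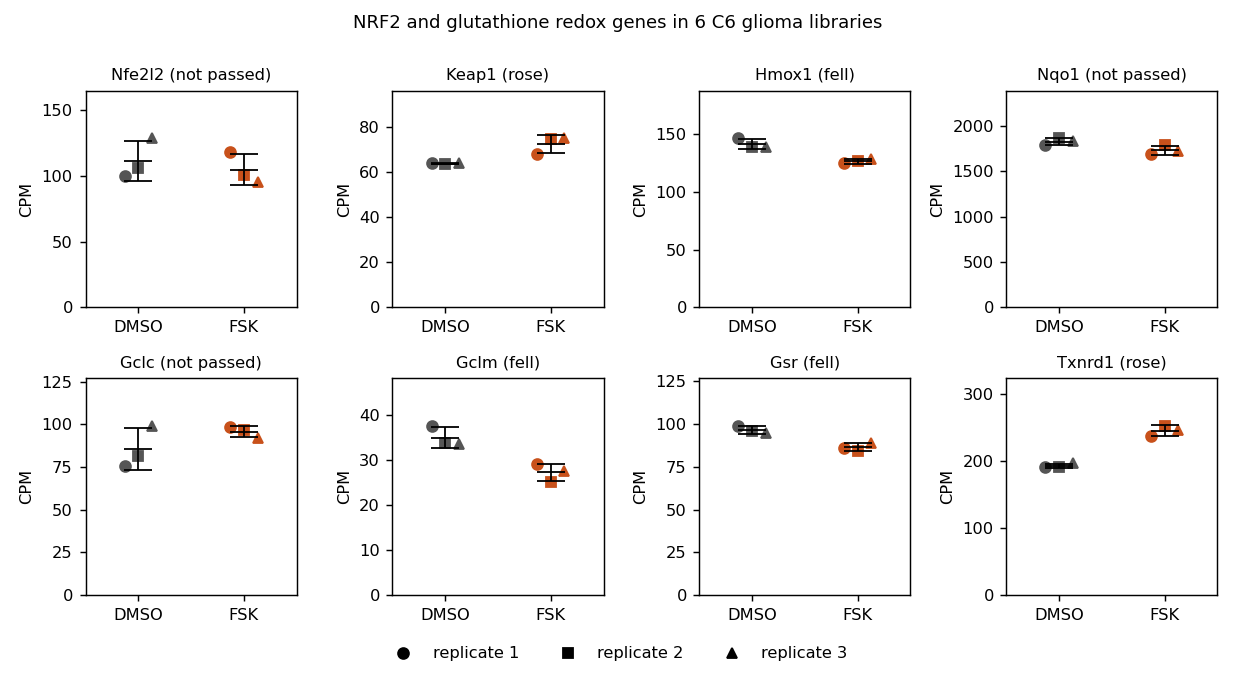
Level of each of the 8 members in CPM (linear axis from 0) in the 3 DMSO and 3 FSK libraries, with a symbol for each replicate number and black bars for the mean ± SD. The groups are apart for Keap1, Hmox1, Gclm, Gsr and Txnrd1 and overlap for Nfe2l2, Nqo1 and Gclc.

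On a per-length scale the members spanned a wide range. Nqo1, encoding a quinone reductase, stood far above the others with 1155 ± 37.2 FPKM in DMSO and 1045 ± 31.4 in FSK (mean ± SD, n = 3), a level higher than that of 99.5% of tested genes. Hmox1 came next in DMSO with 89.9 ± 1.90 FPKM, then Txnrd1 with 56.3 ± 1.80, Nfe2l2 with 48.4 ± 7.41, Gsr with 48.4 ± 0.459, Gclc with 28.0 ± 4.51, Gclm with 23.5 ± 1.24 and Keap1 with 20.1 ± 0.326. In DMSO the ranges of Txnrd1 and Nfe2l2 overlapped, as did those of Nfe2l2 and Gsr and those of Gclc and Gclm. Within each DMSO library Txnrd1 was nonetheless above Nfe2l2. For Nfe2l2 and Gsr, and for Gclc and Gclm, the higher gene changed from library to library. In FSK the order was the same except at its foot, where Keap1 (21.8 ± 0.998 FPKM) lay above Gclm (17.5 ± 1.32) with no overlap between their libraries. Replicates were close for most members: the coefficient of variation of the CPM (counts scaled to library size with TMM factors) was 0.382% for Keap1, 1.63% for Txnrd1 and 3.19% for Hmox1 in DMSO. It was 13.6% for Nfe2l2 and 14.4% for Gclc in DMSO, the highest of the 8.

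Nfe2l2 (ENSRNOG00000001548; Rnor_6.0 chr3:62497571-62524996, minus strand), the gene of NRF2, had 99.9, 106 and 129 CPM in DMSO replicates 1 to 3 and 118, 101 and 95.8 CPM in FSK replicates 1 to 3. The groups overlapped throughout, with DMSO replicate 3 highest and FSK replicate 3 lowest. FSK over DMSO gave a log2 fold change of -0.09 ± 0.11 (SE), with a 95% interval from -0.35 to 0.17 and an adjusted p of 0.557. Without DMSO replicate 3 the value was 0.02 (adjusted p = 0.918), so its sign rested on that library.

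Keap1 (ENSRNOG00000020878; chr8:22250518-22259779, minus strand), the adaptor that marks NRF2 for degradation, had 63.9, 63.5 and 63.8 CPM in DMSO and 67.9, 74.5 and 75.0 CPM in FSK. All 3 FSK libraries lay above all 3 DMSO libraries, and FSK replicate 1 lay nearest to them. Its log2 fold change was 0.19 ± 0.06 (adjusted p = 0.0359). The call did not survive most other settings. The adjusted p was 0.0746, 0.116 and 0.077 without DMSO replicate 1, 2 or 3, and 0.117 and 0.115 without FSK replicate 2 or 3. On library totals without TMM factors the log2 fold change was 0.12 (adjusted p = 0.12), and with limma on log2(FPKM + 5) it was 0.09 (adjusted p = 0.148), in the same direction.

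The ratio of Nfe2l2 to Keap1 on the FPKM scale sets the factor against its inhibitor within each library. It was 2.14, 2.30 and 2.77 in DMSO and 2.39, 1.85 and 1.75 in FSK. The groups overlapped, since FSK replicate 1 lay above 2 of the DMSO libraries. The mean log2 ratio was lower by 0.273 in FSK (exact two-sided permutation test, p = 0.3), in a design where 3 against 3 libraries cannot give a p below 0.1. The difference was -0.17 without DMSO replicate 3 and ran to -0.41 without FSK replicate 1, the libraries whose omission moved it furthest either way. Without FSK replicate 3 it was -0.19.

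Glutathione synthesis starts with glutamate-cysteine ligase, a pair of subunits in which GCLC carries the active site and GCLM raises its efficiency. Of the pair, Gclm fell and Gclc did not pass. Gclm (ENSRNOG00000013409; chr2:225827504-225847874, plus strand) had 37.7, 33.8 and 33.6 CPM in DMSO and 29.1, 25.2 and 27.6 CPM in FSK. Each FSK library lay below each DMSO library, with DMSO replicate 1 highest and FSK replicate 2 lowest. On the log2 scale it fell by 0.36 ± 0.09 (adjusted p = 0.0123). Without FSK replicate 2 it was -0.30 with an adjusted p of 0.0532, and this was the only one of 17 other settings in which the call was lost.

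Gclc (ENSRNOG00000006302; chr8:85059051-85097468, plus strand) had 75.7, 81.2 and 99.2 CPM in DMSO and 98.5, 96.5 and 92.3 CPM in FSK. DMSO replicates 1 and 2 lay below every FSK library, and DMSO replicate 3 lay above them all. Over all 6 libraries the log2 fold change was 0.17 ± 0.10 (95% interval -0.06 to 0.39, adjusted p = 0.213). It depended on DMSO replicate 3, the library in which Nfe2l2 was also highest: without it the log2 fold change was 0.28 with an adjusted p of 0.0178. It was 0.09 (adjusted p = 0.526) in the leave-out that gave the lowest value.

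Set against each other within a library, the Gclm to Gclc ratio of FPKM was 1.02, 0.854 and 0.694 in DMSO and 0.605, 0.536 and 0.612 in FSK. Every FSK library lay below every DMSO library. The mean log2 ratio went from -0.24 ± 0.28 to -0.78 ± 0.11 (SD, n = 3), a difference of -0.53. The exact two-sided permutation p was 0.1, the smallest that this design allows, so the difference cannot pass a threshold of 0.05 here whatever its size.

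**Figure D2:**
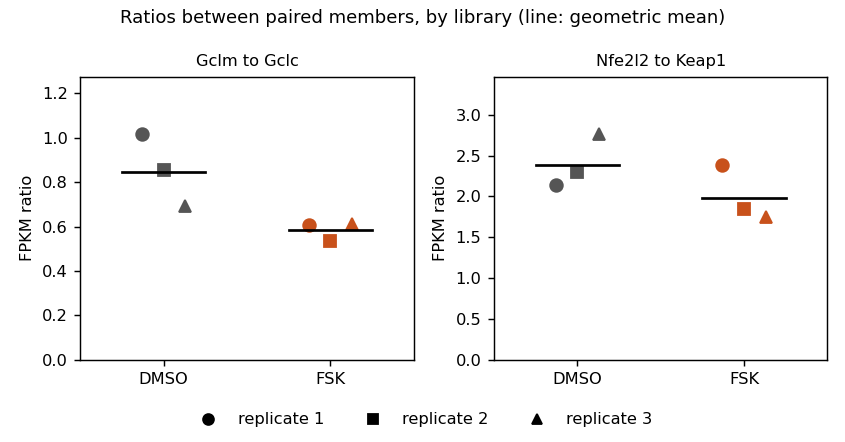
FPKM ratio of Gclm to Gclc and of Nfe2l2 to Keap1 in each library (linear axes from 0), with a symbol for each replicate number and a line at the geometric mean of each group. The Gclm to Gclc ratio is lower in all 3 FSK libraries, 0.536 to 0.612 against 0.694 to 1.02, and the Nfe2l2 to Keap1 ratios overlap.

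Gsr (ENSRNOG00000014915; chr16:62197617-62241361, minus strand) encodes the enzyme that returns oxidised glutathione to its reduced form with NADPH. It had 98.9, 96.1 and 94.4 CPM in DMSO and 85.9, 84.4 and 88.8 CPM in FSK, with no overlap. This was a log2 fold change of -0.16 ± 0.05 (adjusted p = 0.0382). The adjusted p was 0.117 and 0.113 without DMSO replicate 1 or 2, and 0.0621, 0.14 and 0.0694 without FSK replicate 1, 2 or 3. A small nucleolar RNA gene inside Gsr had 0 counts in all 6 libraries, and no other member overlapped another gene of the table.

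Txnrd1 (ENSRNOG00000009088; chr7:26946125-26984400, minus strand) encodes the selenoprotein that reduces thioredoxin, the branch of thiol defence parallel to glutathione. It had 192, 191 and 197 CPM in DMSO and 237, 253 and 246 CPM in FSK. The groups lay well apart, by more than the width of either. The log2 fold change was 0.34 ± 0.05 (95% interval 0.23 to 0.45, adjusted p = 0.000904). Txnrd1 was called in all 17 other settings, with log2 fold changes of 0.25 to 0.40. Over all called genes, whatever their level, the median size of a called change was 0.52, against 0.34 for Txnrd1. That set includes genes of lower expression than any member. Of its 5576 genes, 2432 were past 1.5-fold, against 478 of the 2183 called at or above 20.5 FPKM. The median size of change of those 2183 was not computed. The paralogs of Txnrd1 moved in both directions. Txnrd2, the mitochondrial reductase, rose by 0.57 ± 0.09 (adjusted p = 0.00168), and Txnrd3, chosen after its values were seen, fell by 0.49 ± 0.12 (adjusted p = 0.0123). The strand rule of the counting is not given in the sources used here, so the value of Txnrd2, which does not lie clear of other genes, is uncertain.

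Hmox1 (ENSRNOG00000014117; chr19:14508616-14515456, plus strand) encodes the inducible heme oxygenase, a classic readout of NRF2 that is also repressed by BACH1. It had 146, 139 and 138 CPM in DMSO and 124, 126 and 128 CPM in FSK. All FSK libraries lay below all DMSO libraries. The log2 fold change was -0.16 ± 0.05 (adjusted p = 0.0357). Only 0.592% of all called genes, which include genes of lower expression, had a smaller change, so this was among the smallest changes called. The adjusted p was 0.114 and 0.0875 without DMSO replicate 1 or 2, and 0.0654, 0.105 and 0.0744 without FSK replicate 1, 2 or 3.

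Nqo1 (ENSRNOG00000012772; chr19:38422164-38437180, plus strand), another gene widely read as a sign of NRF2 activity, had 1784, 1866 and 1829 CPM in DMSO and 1688, 1789 and 1720 CPM in FSK. FSK replicate 2 lay just above DMSO replicate 1, and the other FSK libraries lay below the DMSO group. The log2 fold change was -0.08 ± 0.04 (95% interval -0.17 to 0.02, adjusted p = 0.193). This depended on scaling: on library totals alone it was -0.14 (adjusted p = 0.0212), and with limma on log2(FPKM + 1) it was also -0.14 (adjusted p = 0.0455). Each library had at least 127043 counts of Nqo1.

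**Figure D3:**
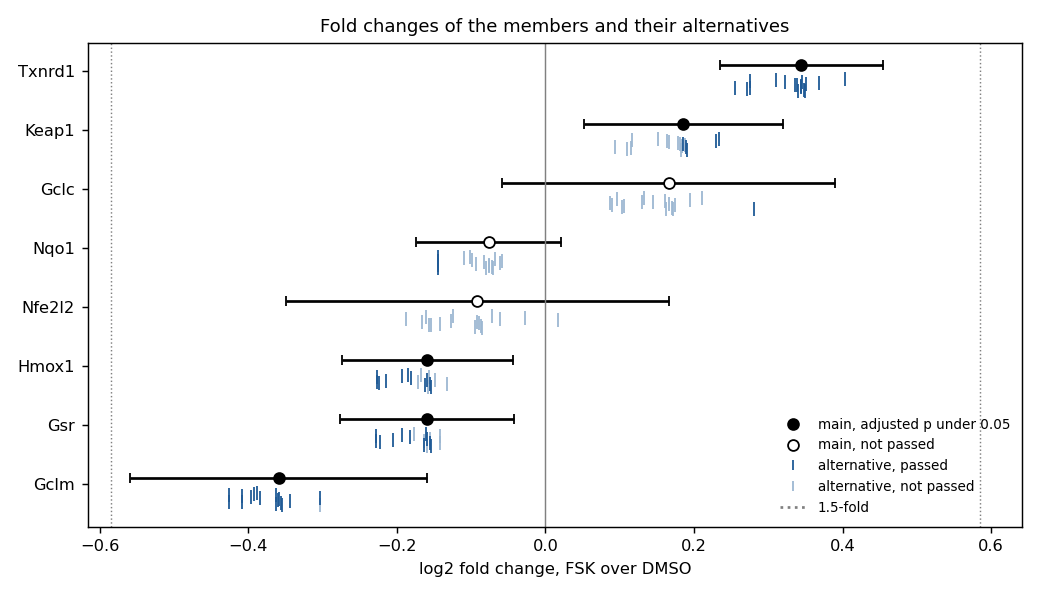
Log2 fold change (FSK over DMSO) of each member with its 95% interval, filled where the adjusted p was under 0.05, and below it a tick for each of 17 other settings, dark where it passed. Dotted lines mark 1.5-fold, which no interval reaches, and Txnrd1 alone is dark in all 17.

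Promoter sequences are shown for the pair of members with the largest rise and the largest fall, because both hold the core of an ARE although they moved in opposite directions. They are from RefSeq on the build GRCr8 (250 bases before to 50 after a start site), which had an entry for 7 of the 9 listed symbols. The motif searched was TGACNNNGC on both strands, and capitals mark its match, which lies on the reverse strand in both. The Gclm promoter is chr2:213031885-213032184 (plus strand), with the match at 172 to 164 bases before the start site. The Txnrd1 promoter is chr7:22755855-22756154 (minus strand), with the match at 78 to 70 bases before it, while the other RefSeq start of Txnrd1 has none.
Gclm: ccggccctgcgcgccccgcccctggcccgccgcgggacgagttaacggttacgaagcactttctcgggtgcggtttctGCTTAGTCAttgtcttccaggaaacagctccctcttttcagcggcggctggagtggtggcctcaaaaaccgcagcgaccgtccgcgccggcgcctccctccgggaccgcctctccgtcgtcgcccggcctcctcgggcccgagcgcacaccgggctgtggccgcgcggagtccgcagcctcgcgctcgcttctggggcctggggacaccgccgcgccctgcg
Txnrd1: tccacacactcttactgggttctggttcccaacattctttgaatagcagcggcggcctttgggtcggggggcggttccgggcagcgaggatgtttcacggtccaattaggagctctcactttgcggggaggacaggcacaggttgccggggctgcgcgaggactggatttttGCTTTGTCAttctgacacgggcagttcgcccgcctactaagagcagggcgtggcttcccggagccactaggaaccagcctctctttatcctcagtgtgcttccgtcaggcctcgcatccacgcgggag
Read on the reverse strand, the matches are TGACTAAGC in Gclm and TGACAAAGC in Txnrd1. Of the 6 tested members with a promoter entry, 3 held a match, the other being Nfe2l2, where it lies after the start site and its first letters also read as the half-site TGACG of a cAMP response element. That half-site was in 2 of the 6, since the Txnrd1 promoter printed here also holds it, on the reverse strand at 24 to 28 bases after the start site and apart from the ARE match. Over all 33469 promoters of this length, 12.1% held TGACNNNGC, 21.2% held TGACG and 1.83% held the full cAMP element TGACGTCA, which none of the 6 members held. The members were counted by gene, with a match in any of its promoters. By that count, of 27457 genes 3602 held TGACNNNGC, 6325 held TGACG and 549 held TGACGTCA. These are matches of letters in a short window and say nothing of binding.

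Genes whose products bind NRF2 or KEAP1, decide the fate of NRF2, or are related or competing factors changed in both directions. Of the 14 regulators and partners tested, 5 rose and 5 fell, so that 71.4% were called against 39.4% of all genes. The list median was -0.11. Of the 4159 tested genes at or above 20.5 FPKM, 52.5% were called. This list and those below hold genes on both sides of that level. Among the small MAF partners, Maff rose by 1.13 ± 0.08 (adjusted p = 2.62e-05), from 61.8, 52.7 and 50.8 CPM to 118, 122 and 120. The 3 FSK libraries were alike, and all lay far above the DMSO group. Mafk rose by 0.67 ± 0.08 (adjusted p = 0.000336), whereas Mafg, chosen after its values were seen, was at -0.01 ± 0.11 (adjusted p = 0.945). Sqstm1, encoding p62, a protein that takes KEAP1 into autophagy, rose by 0.41 ± 0.05, and Dpp3, encoding a KEAP1-binding peptidase, by 0.38 ± 0.06. Cul3, the ligase scaffold that KEAP1 joins, fell by 0.62 ± 0.12 (adjusted p = 0.00539). Gsk3b, a kinase that marks NRF2 for another ligase, fell by 0.58 ± 0.07, and the ligase adaptor gene Fbxw11 by 0.26 ± 0.05. The other such adaptor gene on the list, Btrc, was chosen after its values were seen. It rose by 0.26 ± 0.08 (adjusted p = 0.0323). The related factor gene Nfe2l1 fell by 0.39 ± 0.09. Bach1, whose protein competes with NRF2 at ARE sites, was chosen after its values were seen and was at -0.27 ± 0.16 (adjusted p = 0.219).

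Glutathione genes beyond the members went both ways. Of 22 tested genes of glutathione supply, use and turnover, 6 rose, 5 fell and 11 did not pass (50% called, against 39.4% of all tested genes), with a median of -0.03. The largest change was in Chac1, whose product breaks glutathione down inside the cell. It had 102, 106 and 121 CPM in DMSO and 12.9, 11.3 and 11.7 in FSK, a fall of 3.20 ± 0.09 on the log2 scale (adjusted p = 4.09e-07). The synthesis gene next in line after the ligase, Gss, fell by 0.35 ± 0.07 (adjusted p = 0.00687), and Cbs, an enzyme on the route from methionine to cysteine, fell by 1.15 ± 0.15 (adjusted p = 0.000716) from a low 8.14 ± 1.12 CPM. Gpx1, the main cytosolic glutathione peroxidase, rose by 0.79 ± 0.06 (adjusted p = 5.87e-05). Ggt1, which cleaves glutathione outside the cell, rose by 0.33 ± 0.06, and the mitochondrial glutaredoxin gene Glrx5 by 0.34 ± 0.07. Gpx4, the lipid peroxide peroxidase, rose by 0.45 ± 0.12 (adjusted p = 0.0188; 0.0652 without DMSO replicate 2 and 0.0601 without FSK replicate 3). It overlaps Sbno2 on the opposite strand, which rose by 1.01, and their counts cannot be separated here. Gpx8, of the endoplasmic reticulum, fell by 0.26 ± 0.06 (adjusted p = 0.0132; 0.0594 without FSK replicate 2 and 0.058 without FSK replicate 3).

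The cystine importer gene Slc7a11, an NRF2 target that limits glutathione synthesis, was chosen after its values were seen. It had 16.2, 35.6 and 49.99 CPM in DMSO and 21.2, 17.8 and 14.1 CPM in FSK. DMSO replicate 1 lay among the FSK libraries, and the 2 other DMSO libraries lay above them. The log2 fold change was -0.94 ± 0.35 (adjusted p = 0.0683), which did not pass.

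Of 17 tested glutathione S-transferase genes, which join glutathione to foreign compounds, 5 rose, 4 fell and 8 did not pass (52.9% called, against 39.4% of all tested genes), with a median of 0.05. The membrane-bound Mgst1 rose by 0.73 ± 0.05 (adjusted p = 2.7e-05) and Mgst2 by 0.35 ± 0.06, while Mgst3 fell by 0.36 ± 0.07. Gsto1 (0.32 ± 0.06) and Gsta4 (0.39 ± 0.08) rose. Gstm1 fell by 0.64 ± 0.06 (adjusted p = 0.000158), Gstm3 by 0.36 ± 0.08 and Gstt2 by 0.43 ± 0.09. Members of the Gstm family are near copies of each other, so how the counting split their reads is uncertain. Gstp1, chosen after its values were seen, was the most abundant of the family at 1002 FPKM in DMSO and 973.8 in FSK, and was at 0.03 ± 0.05 (adjusted p = 0.704).

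Beside Txnrd1, genes of the thioredoxin and peroxiredoxin system rose and fell in equal number. Of its 19 tested members, 7 rose and 7 fell (73.7% called, against 39.4% of all tested genes), with a median of -0.06. The peroxiredoxins, which remove peroxide, split. Prdx5 rose by 0.83 ± 0.05 (adjusted p = 1.89e-05), Prdx6 by 0.53 ± 0.06 and Prdx2 by 0.42 ± 0.06. Prdx4, of the endoplasmic reticulum, fell by 0.35 ± 0.05. Txnip, whose product binds and inhibits thioredoxin, had 28.6, 39.5 and 51.7 CPM in DMSO and 3.85, 5.60 and 3.76 in FSK. The fall was 3.18 ± 0.25 on the log2 scale (adjusted p = 4.91e-05), and 1.56 on the log2(FPKM + 5) scale, which shrinks changes of low genes. The sestrin genes Sesn2 and Sesn3, tied to stress signalling, fell by 1.20 ± 0.08 and 0.62 ± 0.07.

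Other NRF2 targets and genes of NADPH supply gave 5 rises and 6 falls among 17 tested (64.7% called, against 39.4% of all tested genes), with a median of -0.01. Taldo1, an enzyme of the pentose phosphate pathway, rose by 0.26 ± 0.05. Tkt, also of that pathway, fell by 0.15 ± 0.04 (adjusted p = 0.0274, and 0.106, 0.0744, 0.06 and 0.0599 without DMSO replicate 2 or FSK replicate 1, 2 or 3), and the malic enzyme gene Me1 fell by 0.29 ± 0.06. Ugdh, which makes UDP-glucuronate, rose by 0.61 ± 0.05 (adjusted p = 6.76e-05) and the aldo-keto reductase gene Akr1b8 by 0.22 ± 0.04. The aldehyde dehydrogenase gene Aldh3a1 fell by 0.85 ± 0.08 (adjusted p = 0.000156). Ptgr1 fell by 2.49 ± 0.58 (adjusted p = 0.0105), but from only 1.004 ± 0.0996 CPM.

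Around Hmox1, genes of heme and iron handling were called in 8 of 10 cases (80.0%, against 39.4% of all tested genes), with 5 rises, 3 falls and a median of 0.05. The enzymes at the start and the end of heme synthesis both rose, Alas1 by 0.64 ± 0.08 and Fech by 0.63 ± 0.08, as did the transferrin receptor gene Tfrc by 0.77 ± 0.08 (adjusted p = 0.000255). Blvrb, a biliverdin reductase gene, fell by 0.62 ± 0.06 (adjusted p = 0.00011), and the heme transporter gene Slc48a1 by 0.54 ± 0.05. Blvra and Hmox2 were chosen after their values were seen. Blvra, the other biliverdin reductase gene, was at -0.19 ± 0.09 (adjusted p = 0.126) and did not pass. Hmox2, another heme oxygenase gene, rose by 0.29 ± 0.06 (adjusted p = 0.00784). The ferritin heavy chain gene Fth1 rose by 0.54 ± 0.04 from 3521 ± 90.5 CPM, but it overlaps Best1 on the opposite strand, which had 77386 to 117973 counts and rose by 0.52, and the counts cannot be told apart. The iron exporter gene Slc40a1 fell by 2.42 ± 0.59 from 2.22 ± 0.691 CPM (adjusted p = 0.0125; 0.0501 without DMSO replicate 3).

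Sod3 and Sod2, a pair of superoxide dismutase genes, rose by larger amounts than any member. Sod3, the secreted enzyme, had 1149, 1136 and 1077 CPM in DMSO and 2984, 2948 and 3134 in FSK, a rise of 1.43 ± 0.05 (adjusted p = 6.89e-07). Sod2, of mitochondria, went from 118, 117 and 118 to 286, 267 and 279 CPM, a rise of 1.24 ± 0.05 (adjusted p = 1.44e-06). Sod1, the cytosolic enzyme, rose by only 0.22 ± 0.05 (adjusted p = 0.00649; 0.0612 with the transcript length trend removed). Park7, encoding the redox-sensing protein DJ-1, rose by 0.20 ± 0.06 (adjusted p = 0.0224, with 0.0785, 0.0533, 0.0585, 0.0523 and 0.0568 without DMSO replicate 2 or 3 or FSK replicate 1, 2 or 3, and 0.0519 to 0.0558 with limma on FPKM or on library totals). Of the 10 tested superoxide and peroxide genes these 4 rose and none fell, with a median of 0.21, and the 40.0% called was near the 39.4% of all tested genes. Catalase, encoded by Cat and chosen after its values were seen, was at 0.01 ± 0.10 (adjusted p = 0.969).

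**Figure D4:**
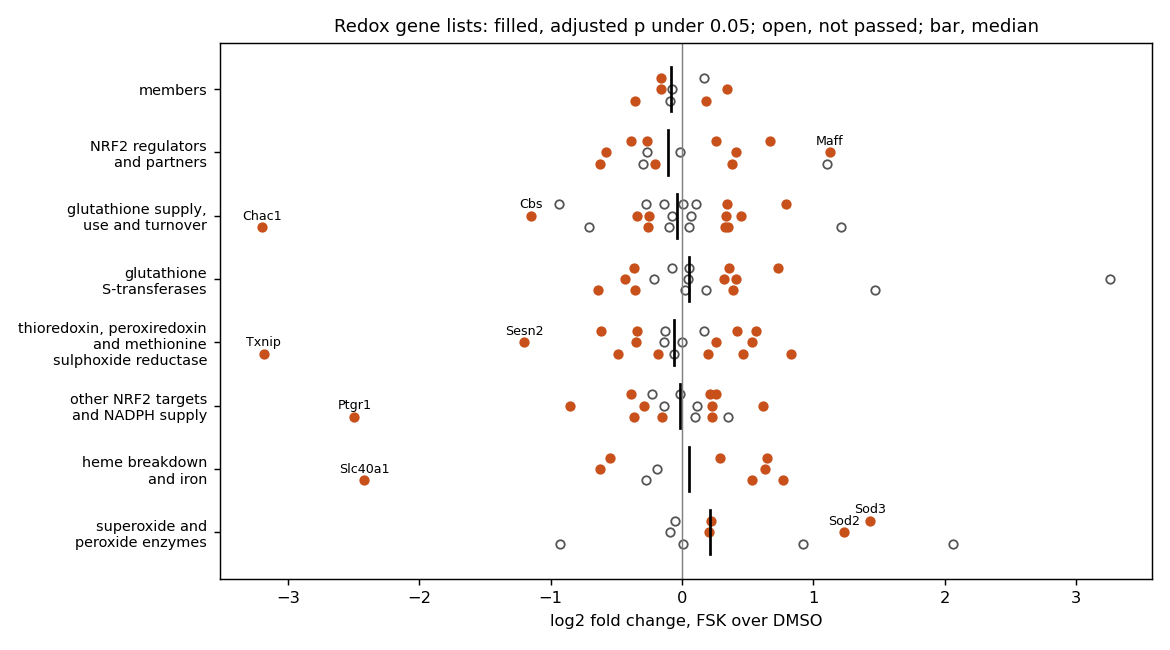
Log2 fold change (FSK over DMSO) of the 8 members and of the 7 other redox gene lists, 1 point per tested gene, filled where the adjusted p was under 0.05, with a bar at each list's median. The members lie between -0.36 and 0.34, while called genes of the other lists run from -3.20 for Chac1 to 1.43 for Sod3, and list medians lie between -0.11 and 0.21.

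The genes whose pattern over the 6 libraries was most like that of Nfe2l2, among 8748 other genes with at least 10 CPM, were Micu2 (Pearson r of log2 CPM = 0.988), LOC108348062 (0.987), Hspa4l (0.985), Emc2 (0.983) and Echdc1 (0.981). All 5, like Nfe2l2, were highest in DMSO replicate 3 and next highest in FSK replicate 1. None of the 5 passed the test between the groups, with log2 fold changes of -0.20 to -0.04. With 6 libraries and so many genes compared, such values are a description of these libraries alone.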

How the data were processed

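The authors deposited a table with whole-number counts per gene and FPKM values (fragments per kilobase of transcript, scaled to library size) for each of 6 libraries, so named per the file headers; FPKM is 0.0001 where a count is 0. The tools cutadapt, HISAT2, StringTie, edgeR and DESeq2 and the build Rnor_6.0 are listed per the submitters' processing notes; not given in the sources used here are their settings, the annotation, the strand rule, and what 1 count stands for.

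Counts were tested here with edgeR 4.0.16 in R 4.3.3, FSK against DMSO, all 6 libraries, no block. The test used TMM factors, filterByExpr, a quasi-likelihood fit and Benjamini-Hochberg adjustment over 14166 genes, with a threshold of 0.05. TMM factors were 1.009 to 1.042 in DMSO and 0.9641 to 0.9885 in FSK. They did not overlap between the groups, so small fold changes depend on this scaling. The biological coefficient of variation was 20.8%. Fold changes are log2, FSK over DMSO, ± the SE from the F statistic. Pairs of replicates differed beyond sampling noise, with a chi-square of 30.8 to 56.7 for each degree of freedom. The fit was tested on simulated data.

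Other settings were DESeq2 1.42.0 and its size factors, no filter, limma 3.58.1 on log2 FPKM with pseudocounts of 1, 0.1 and 5, a robust fit, omission of each library in turn and a replicate block; library totals, upper-quartile factors and removal of a transcript length trend were added after seeing the data. Members and lists were chosen with earlier results of these data known. The text names all members, up to 4 called genes per list and direction with the smallest adjusted p, and the 5 genes most like Nfe2l2; others are said to be chosen after their values were seen. A gene that the rule names is not reported here. Of 122 other listed genes, 115 were matched by symbol and 109 tested. Slc40a1 has 2 rows, and the one with more counts was used.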

Additional observations from a re-analysis of the deposited data

How the results depend on the processing

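Txnrd1 passed in 17 of 17 other settings, Gclm in 16, Hmox1 and Gsr in 11 each and Keap1 in 5. The count of members that rose was 1 with no filter, with limma at each pseudocount, on library totals and with upper-quartile factors, and 1 to 2 when a library was left out. The count that fell was 0 to 3 with a library left out. Keap1 was at 0.18 with no filter (adjusted p = 0.0538), 0.11, 0.115 and 0.0934 with limma on FPKM with pseudocounts of 1, 0.1 and 5, 0.12 on library totals and 0.15 with upper-quartile factors (adjusted p = 0.0554). Nqo1 passed at -0.14 with limma at each pseudocount and on library totals. With a library left out, log2 fold changes ran from -0.19 to 0.0172 for Nfe2l2, 0.16 to 0.23 for Keap1, -0.18 to -0.13 for Hmox1, 0.0864 to 0.28 for Gclc, -0.41 to -0.30 for Gclm and -0.18 to -0.14 for Gsr. Those of LOC108348062 (-0.12 to 0.0288), Hspa4l (-0.24 to 0.014), Emc2 (-0.46 to 0.0938) and Echdc1 (-0.18 to 0.0194) changed sign. Glutathione supply genes then gave 3 to 6 rises and 3 to 6 falls, and other NRF2 targets 3 to 6 falls. Library totals moved the median of all genes to -0.08. On log2(FPKM + 5), changes of low genes shrank, to -0.35 for Cbs, -0.18 for Ptgr1 and -0.15 for Slc40a1, and the rises of Txnrd2, Tfrc and Fech to 0.37, 0.51 and 0.41. With the length trend removed Mgst2 was at 0.19 and Fbxw11 at -0.17, both still called. Beyond what these settings construct, the cause was not tested.

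The replicate numbers were not found to pair the libraries: deviations of same-numbered libraries correlated at -0.0407, 0.0177 and -0.0354, and DMSO replicate 1 correlated best with FSK replicate 3 (0.0562). With the replicate block 2160 genes rose and 2165 fell, 1 member rose and 1 fell, and 3 other NRF2 targets fell. Keap1 was then at 0.18 (adjusted p = 0.0918), Hmox1 at -0.16 (0.111), Gsr at -0.16 (0.113) and Tkt at -0.15 (0.0832). The paired difference of the Gclm to Gclc log2 ratio was -0.53 (exact sign-flip test, p = 0.25, the smallest that 3 pairs allow).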

Other observations

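The row named Ftl1, the symbol of the ferritin light chain gene, an NRF2 target, was chosen after its values were seen. It had 299, 348 and 226 CPM in DMSO and 178, 270 and 275 CPM in FSK, with overlapping groups (log2 fold change -0.27 ± 0.19, edgeR adjusted p = 0.303). The row spans chr5:152325871-152326778, and the transcript length implied by its counts and FPKM, 931 bases, leaves no room for introns. Whether it is the gene itself or a copy of it was not checked. A microRNA gene annotated inside the Ftl1 row on the same strand, AC120071, had 13614, 18793 and 11027 counts in the DMSO libraries, 2 and 3 in FSK replicates 1 and 2, and 12800 in FSK replicate 3. How the counting shared fragments between the pair is not given in the sources used here.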
